A study of Mus musculus with 12 samples.

Results

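Iron uptake, storage and sensing were followed through 9 genes of cultured keratinocytes (the cells that build the epidermis) of the mouse: Tfrc, Steap3, Fth1, Ftl1, Ncoa4, Aco1, Ireb2, Fbxl5 and Hmox1. They were taken by gene name from a table of 54532 genes, and all 9 passed the filter on low counts that left 13571 genes for testing. The choice of genes named the fall of Tfrc on wounding. That fall and its difference between fractions are therefore given here as a description without a test. The study set the mRNA being translated near the cell cortex beside the rest of the translated mRNA, in unwounded and in wounded cultures. All cells carried the genotype label WT DP-BirA(1-584), a doxycycline-driven fusion of the biotin ligase BirA to residues 1 to 584 of desmoplakin, a protein of desmosomes, which join neighbouring cells. All cultures were grown to confluence without calcium, then received 2 µg/mL doxycycline and calcium (1.2 µM as labelled, a unit that could not be checked here and that is lower than the millimolar calcium usual for differentiating keratinocytes), were wounded or left intact, and were pulsed with biotin for 16 h. The translating part of a sucrose gradient was incubated with a neutravidin resin, which captures biotin. The captured RNA is named cortical and the RNA left behind is named total, so the total fraction is not an input that holds both. The 4 groups were the total and the cortical fraction of unwounded and of wounded cells, with 3 libraries in each, labelled as biological replicates.

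Cells take up iron when transferrin, its carrier in plasma, binds the transferrin receptor (Tfrc) and is internalised. In endosomes the reductase Steap3 converts ferric to ferrous iron, which is then carried into the cytosol. Iron that is not used is stored in ferritin, a shell of heavy (Fth1) and light (Ftl1) chains, and Ncoa4 delivers ferritin to lysosomes for breakdown. The iron regulatory proteins, encoded by Aco1 and Ireb2, bind RNA hairpins called iron responsive elements when iron is scarce. Binding in the 5′ untranslated region blocks translation of ferritin mRNA, and binding in the 3′ untranslated region protects Tfrc mRNA from decay. Fbxl5 is the iron-sensing subunit of the ubiquitin ligase that marks the Ireb2 protein for degradation, and Hmox1 releases iron from heme. In the epidermis keratinocytes divide in the basal layer, and DNA synthesis needs iron.

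The hairpins are shown because they are the sequence that sets Tfrc and ferritin apart from the other genes of the group. Untranslated regions of protein-coding transcripts (GENCODE M21, build GRCm38, the same assembly as mm10) were searched on the transcript strand for an unpaired C, 5 paired stem bases, the loop CAGTGN and the 5 pairing bases, with G-U pairs allowed. Each sequence below is 29 bases, 5′ to 3′ on the transcript strand, with the 6 loop bases in capitals.
Tfrc hairpin 1 (chr16:32631219-32631247, plus strand): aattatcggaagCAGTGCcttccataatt
Tfrc hairpin 2 (chr16:32631598-32631626, plus strand): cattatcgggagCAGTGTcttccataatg
Tfrc hairpin 3 (chr16:32631663-32631691, plus strand): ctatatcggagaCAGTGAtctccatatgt
Tfrc hairpin 4 (chr16:32631710-32631738, plus strand): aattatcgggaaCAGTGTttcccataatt
Fth1 hairpin (chr19:9982732-9982760, plus strand): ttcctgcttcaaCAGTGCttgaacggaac
Ftl1 hairpin (chr7:45459779-45459807, minus strand): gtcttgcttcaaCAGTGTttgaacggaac
Tfrc held 4 matches in its 3′ untranslated region of 2458 bases, and Fth1 and Ftl1 each held 1 in the 5′ untranslated region. The other 6 genes had no match in either region, which says only that this pattern is not written there. A hairpin with another loop or an imperfect stem is not counted. The matches of Tfrc, Fth1 and Ftl1 are therefore not a full count of their iron responsive elements. Of 19998 genes with a 5′ untranslated region, 28 (0.14%) held a match. Of 20744 genes with a 3′ untranslated region, 126 (0.607%) held one, and of the 3951 whose region was at least as long as that of Tfrc, 60 (1.52%) did. Tfrc was the 1 gene with at least 2 matches in its 3′ untranslated region.

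**Figure D1:**
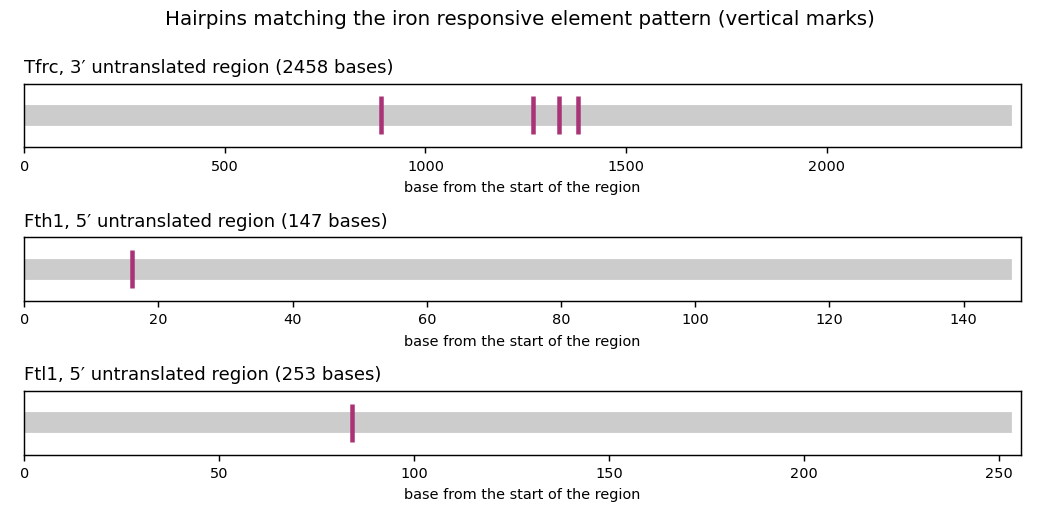
Positions of matches to the iron responsive element pattern (vertical marks) along the 3′ untranslated region of Tfrc and the 5′ untranslated regions of Fth1 and Ftl1 (grey bars), in bases from the start of each region, each panel on its own scale. The 4 marks of Tfrc lie in the middle of its 2458 bases, and Fth1 and Ftl1 have 1 mark each.

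Libraries held 8980013 to 23457548 counted fragments. Wounded total replicate 1 stood apart, with 13117 genes detected against 14393 to 16867 in the other libraries. All 12 keratinocyte markers were detected, and their summed level was 11062 to 12177 CPM (counts scaled to a common library size with TMM factors) in unwounded total, 15545 to 15643 in unwounded cortical, 17747 to 20301 in wounded total and 21047 to 21359 in wounded cortical libraries. Of the markers of differentiated layers, Krt1 had 0 to 44 counts and Krt10 177 to 553. Of 10 leukocyte markers, 6 were at 0 in all 12 libraries, including Csf1r and Adgre1. The summed leukocyte level, nearly all Cd68, was 21.4 to 25.1 CPM in unwounded total and 43.5 to 59.9 CPM in wounded total libraries, and 19.02 to 21.5 and 33.2 to 39.1 CPM in the cortical ones. Of 9 fibroblast markers 3 reached 1 CPM in any library, with Fbln1 at 389 to 1389 counts and Dcn and Thy1 at 0. Their sum was 41.7 to 47.7 CPM in unwounded total and 58.6 to 78.7 CPM in wounded total libraries, and 42.4 to 48.9 and 59.0 to 67.4 CPM in the cortical ones. Of 5 erythroid markers 1 reached 1 CPM, Hba-a1, with 30 to 281 counts and up to 17.2 CPM, while Hbb-bs was at 0. The erythroid sum was 5.89 to 11.5 CPM in unwounded total and 11.04 to 17.7 in wounded total libraries. In cortical libraries it was 2.59 to 4.68 in unwounded and 3.96 to 9.65 in wounded cells. The part of these marker levels in the results that follow was not tested.

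Tfrc was lower in wounded cells in both fractions, Steap3 rose on wounding in the total fraction, and ferritin stayed among the most abundant mRNAs. Of the 8 genes tested for a wound response, 1 rose and 0 fell in the total fraction with edgeR's quasi-likelihood test at adjusted p under 0.05, where 8.39% of all tested genes were called higher and 7.2% lower. In the cortical fraction 0 of 8 passed in edgeR, where 1.6% of all genes were called higher and 0.884% lower. There 2 of 8 were under 0.05 unadjusted, and DESeq2 and limma on log2 FPKM each called 0. Between fractions of unwounded cells 2 of 9 were higher in the cortical fraction and 0 lower, against 6.62% of all genes higher and 7.59% lower. In wounded cells 1 of 9 was higher and 0 lower, against 7.62% and 8.03%. That 1 gene was Tfrc, whose wounded values entered the choice of genes. The change of the cortical-to-total ratio on wounding was called for 0 of the 8 genes other than Tfrc in edgeR, against 0.125% of all genes in either direction. Of these 8, 1 was under 0.05 unadjusted, and DESeq2 and limma called 0. The median log2 difference over the genes of the group was -0.15, -0.01, 0.27, 0.15 and 0.04 in these 5 comparisons, beside -0.03, 0.02, 0.00, 0.04 and 0.02 over all tested genes. The medians of the group leave out Tfrc in the 2 wound responses and hold all 9 genes in the other comparisons. With scaling by library size alone 77.1% of all calls between unwounded fractions were higher in cortical (46.6% with TMM) and 80.9% between wounded fractions (48.7% with TMM). That scaling moved the median of all genes by 0.19 and 0.21 log2 units. On wounding it left 39.1% of calls higher in the total fraction (53.8% with TMM) and 54.3% in the cortical fraction (64.4% with TMM). Removing the trend with gene length made 74.2% of the wound calls of the total fraction higher, and 25.02% of the calls between wounded fractions, and moved the medians of all genes by 0.11 and -0.08.

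Tfrc (ENSMUSG00000022797, chr16:32608920-32632794, mm10, plus strand) encodes the receptor that brings transferrin-bound iron into the cell. In unwounded total libraries its level was 18.8, 16.99 and 16.6 CPM in replicates 1 to 3. In wounded total libraries it was 2.79, 3.26 and 5.52 CPM. In unwounded cortical libraries it was 24.7, 26.3 and 34.0 CPM, and in wounded cortical libraries 8.31, 5.09 and 10.04 CPM. Every wounded library lay below every unwounded library, in either fraction. The order of the means was unwounded cortical (28.3 ± 4.95 CPM, SD, n = 3), unwounded total (17.4 ± 1.18), wounded cortical (7.82 ± 2.51) and wounded total (3.85 ± 1.46). Neighbours in that order did not overlap except the wounded pair, in which wounded cortical replicate 2 lay below wounded total replicate 3.

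The fitted level of Tfrc on wounding was 4.53-fold lower in the total fraction (log2 difference -2.18, SE 0.27) and 3.59-fold lower in the cortical fraction (-1.85, SE 0.26). Of 9318 genes that averaged 100 counts or more, 2 had a more negative difference in the total fraction and 0 in the cortical fraction. Tfrc was chosen with this fall known, so its extreme place follows from the choice and is a description only. On the log2(FPKM + 1) scale, which compresses low values, the differences were -1.22 and -1.32. Without wounded total replicate 1 the difference in the total fraction was -1.997. Counts are shares of the translated mRNA recovered in each fraction, and no unfractionated mRNA was analysed here. Less Tfrc mRNA, a smaller part of it on ribosomes, and fewer cells that express it therefore cannot be told apart.

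Tfrc was 2.04-fold higher in the cortical than in the total fraction of wounded cells (log2 difference 1.03, SE 0.27, edgeR adjusted p = 0.018). This call, like the unwounded comparison below, is not independent of the choice of Tfrc, as all 4 groups entered its fall. That call was lost without wounded total replicate 2 (edgeR adjusted p = 0.0774), without wounded cortical replicate 1 (0.0589) or replicate 3 (0.0894), with the length trend removed (0.0518), with only these 2 groups in the fit (0.131) and with limma on log2(FPKM + 1) (0.0912) or log2(FPKM + 0.1) (0.0596). In unwounded cells the difference was 0.69 (SE 0.25, edgeR adjusted p = 0.0762) with no overlap of the groups. It passed in 7 of 22 alternatives (adjusted p = 0.00287 to 0.0495), among them edgeR without wounded total replicate 1 (0.0191) or 3 (0.0337) and DESeq2 (0.0458). The ratio between fractions changed on wounding by 0.33 log2 units (SE 0.37). This change is the difference between the 2 falls of Tfrc, which the choice of genes named, so it is described without a test.

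Steap3 (ENSMUSG00000026389, chr1:120190757-120272705, minus strand), the endosomal ferric reductase, went the other way. Unwounded total libraries gave 7.50, 7.17 and 7.89 CPM. Wounded total libraries gave 15.2, 18.9 and 15.0 CPM, all above the unwounded ones. It rose 2.17-fold (log2 difference 1.12, SE 0.18, edgeR adjusted p = 5.94e-04), a call that passed in all 22 alternative analyses. The cortical libraries read 12.9, 12.2 and 10.1 CPM in unwounded and 16.5, 15.7 and 17.2 CPM in wounded cells. These cortical groups did not overlap either, but the difference of 0.48 (SE 0.18) did not pass (edgeR adjusted p = 0.162).

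In unwounded cells Steap3 was 1.57-fold higher in the cortical fraction (log2 difference 0.65, SE 0.18, edgeR adjusted p = 0.024). This call was lost without unwounded total replicate 1 (edgeR adjusted p = 0.0738) or 2 (0.0991), without unwounded cortical replicate 1 (0.104) or 2 (0.0735), with no count filter (0.0598) and with the length trend removed (0.0538). In wounded cells the fractions differed by 0.01 (SE 0.18, edgeR adjusted p = 0.978). The change of the ratio on wounding, -0.64 (SE 0.25), had an unadjusted p of 0.0223 and did not pass over all genes (edgeR adjusted p = 0.466).

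**Figure D2:**
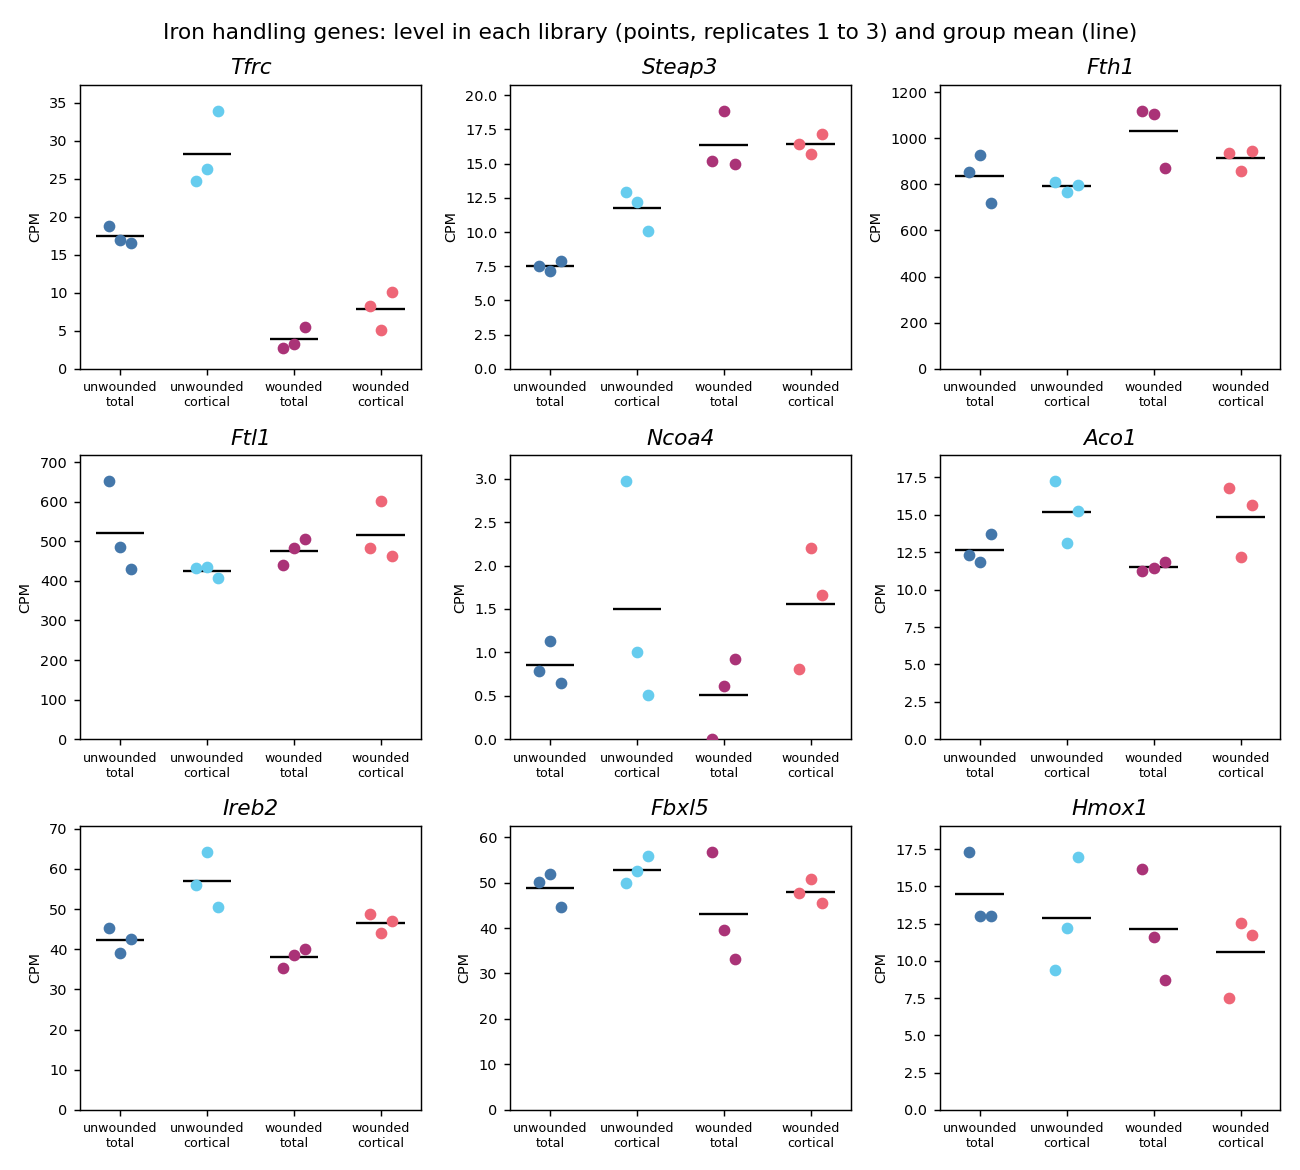
Level of each gene in CPM (vertical axes from 0, each panel on its own scale) in the 12 libraries, with points for replicates 1 to 3 and a line for the group mean. Tfrc is lower in all 6 wounded libraries, Steap3 is lowest in unwounded total libraries, and the remaining panels show groups that lie closer together or overlap.

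Ferritin mRNA was far more abundant per length than the uptake genes. By FPKM (counts per unit of gene length, scaled for library size) Fth1 ranked between 72 and 129 of the 13571 tested genes over the 12 libraries and Ftl1 between 177 and 305, while Tfrc ranked between 5443 and 11176. Fth1 (ENSMUSG00000024661, chr19:9982703-9985092, plus strand), the heavy chain that oxidises ferrous iron, read 855, 929 and 721 CPM in unwounded total and 1119, 1106 and 868 CPM in wounded total libraries. The groups overlapped, and the difference of 0.30 (SE 0.12) did not pass (edgeR adjusted p = 0.102), though it did with DESeq2 (adjusted p = 0.0224) and without wounded total replicate 3 (edgeR adjusted p = 0.0304). In cortical libraries Fth1 read 809, 767 and 797 CPM before and 937, 859 and 946 CPM after wounding. These groups did not overlap, and the difference was 0.21 (SE 0.12, edgeR adjusted p = 0.411), which passed when only these 2 groups were fitted (edgeR adjusted p = 0.0109). Between fractions Fth1 differed by -0.08 (SE 0.12) in unwounded and -0.17 (SE 0.12) in wounded cells, and neither passed (edgeR adjusted p = 0.782 and 0.379). Both of these signs turned with library-size scaling and with the length trend removed.

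Ftl1 (ENSMUSG00000050708, chr7:45457944-45459884, minus strand), the light chain that helps form the mineral core, read 651, 485 and 429 CPM in unwounded total, 432, 435 and 407 in unwounded cortical, 440, 484 and 506 in wounded total, and 482, 602 and 462 in wounded cortical libraries. Unwounded total replicate 1 was the highest of all 12. The wound response was -0.13 (SE 0.14, edgeR adjusted p = 0.602) in the total and 0.28 (SE 0.14, edgeR adjusted p = 0.33) in the cortical fraction, where the groups did not overlap and the difference passed with only those groups fitted (edgeR adjusted p = 0.0235). Between fractions it differed by -0.30 (SE 0.14, edgeR adjusted p = 0.192) in unwounded and 0.11 (SE 0.14, edgeR adjusted p = 0.659) in wounded cells. Its processed copy Ftl1-ps1 had 110 to 388 counts, 1.79% to 3.28% of those of Ftl1, and reads could be split between the copies. With the counts of the copy added no direction or call of Ftl1 changed.

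The balance of storage to uptake mRNA is shown by the ratio of Fth1 to Tfrc in FPKM, which needs no scaling between libraries. It was 311 to 390 (mean 342, n = 3) in unwounded total and 1124 to 2865 (mean 2138) in wounded total libraries. In the cortical fraction it was 168 to 234 (mean 203) in unwounded and 673 to 1204 (mean 894) in wounded libraries. All 6 wounded libraries were above all 6 unwounded ones, a separation that follows from the fall of Tfrc by which the genes were chosen. The ratio of the ferritin chains, Fth1 to Ftl1, was 2.03 to 3.94 over the 12 libraries, and its groups overlapped.

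**Figure D3:**
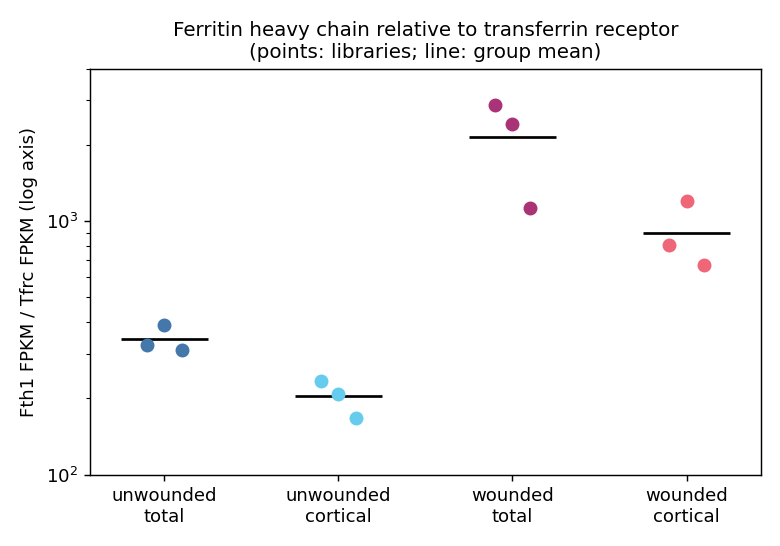
Ratio of Fth1 FPKM to Tfrc FPKM (log axis) in each library (points) with the mean of each group (line). Unwounded libraries lie between 168 and 390 and wounded libraries between 673 and 2865.

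Ncoa4 (ENSMUSG00000056234, chr14:32159865-32179855, plus strand), the receptor that takes ferritin to lysosomes, was barely detected. It had 18, 20 and 11 counts in unwounded total, 76, 12 and 5 in unwounded cortical, 0, 11 and 15 in wounded total, and 20, 35 and 34 in wounded cortical libraries. The largest count was that of unwounded cortical replicate 1 and the 0 was that of wounded total replicate 1, and the groups overlapped in all 4 comparisons. Wounding gave log2 differences of -0.73 (SE 0.99) in the total and 0.02 (SE 0.95) in the cortical fraction. The cortical-to-total differences were 0.84 (SE 0.96) in unwounded and 1.59 (SE 0.99) in wounded cells. With standard errors of this size moderate differences could not have been detected, and none passed (edgeR adjusted p = 0.316 to 0.995 over the 5 comparisons).

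The sensors of iron gave no call on wounding. Ireb2 (ENSMUSG00000032293, chr9:54863789-54912530, plus strand), which encodes iron regulatory protein 2, read 45.2, 39.0 and 42.5 CPM in unwounded total and 56.1, 64.3 and 50.4 CPM in unwounded cortical libraries. All cortical values were above all total values, and the level was 1.35-fold higher (log2 difference 0.43, SE 0.12, edgeR adjusted p = 0.0206). The call was lost without unwounded total replicate 2 (edgeR adjusted p = 0.103) or 3 (0.0512), without unwounded cortical replicate 1 (0.0594) or 2 (0.123), and with the length trend removed (0.187), and the gene is 9479 bases long in merged exons. In wounded cells it read 35.3, 38.5 and 40.1 CPM in total and 48.8, 44.0 and 47.1 CPM in cortical libraries. Again the fractions did not overlap, with a difference of 0.30 (SE 0.12) that did not pass (edgeR adjusted p = 0.101), and did with library-size scaling (0.0131). Wounding gave -0.15 (SE 0.12, edgeR adjusted p = 0.428) in the total fraction. In the cortical fraction it gave -0.29 (SE 0.12, edgeR adjusted p = 0.211), with every wounded library below every unwounded one.

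Aco1 (ENSMUSG00000028405, chr4:40143081-40198338, plus strand) encodes iron regulatory protein 1, which serves as the cytosolic aconitase when it holds an iron-sulfur cluster. It read 12.3, 11.9 and 13.7 CPM in unwounded total, 17.2, 13.1 and 15.3 in unwounded cortical, 11.2, 11.5 and 11.8 in wounded total, and 16.8, 12.2 and 15.6 in wounded cortical libraries. The wounded total libraries were the lowest of the gene, yet the wound response there was only -0.14 (SE 0.18, edgeR adjusted p = 0.685), and it was -0.03 (SE 0.18, edgeR adjusted p = 0.958) in the cortical fraction. Cortical exceeded total by 0.27 (SE 0.18, edgeR adjusted p = 0.397) in unwounded and 0.37 (SE 0.18, edgeR adjusted p = 0.186) in wounded cells. Neither difference passed, although the wounded groups did not overlap and their difference passed with library-size scaling (edgeR adjusted p = 0.0486). In FPKM, Ireb2 was 1.38 to 2.32 times Aco1 over the 12 libraries.

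Fbxl5 (ENSMUSG00000039753, chr5:43744615-43821638, minus strand), the iron-sensing ligase subunit, read 50.1, 51.9 and 44.7 CPM in unwounded total, 50.0, 52.6 and 55.8 in unwounded cortical, 56.8, 39.5 and 33.2 in wounded total, and 47.7, 50.7 and 45.6 in wounded cortical libraries. Wounded total replicate 1 was the highest of its gene and the other 2 replicates of that group the lowest. The wound response was -0.18 (SE 0.15, edgeR adjusted p = 0.494) in the total and -0.14 (SE 0.15, edgeR adjusted p = 0.724) in the cortical fraction. Without wounded total replicate 1 it was -0.43 in the total fraction (edgeR adjusted p = 0.0125), and the cortical-to-total difference of wounded cells went from 0.15 (SE 0.15, edgeR adjusted p = 0.57) to 0.40 (edgeR adjusted p = 0.0196). In unwounded cells that difference was 0.11 (SE 0.15, edgeR adjusted p = 0.755). Exons of Fbxl5 overlap those of Bst1 on the opposite strand, and as the libraries were not directional, reads of the overlap cannot be told apart; Bst1 had 91 to 291 counts and Fbxl5 541 to 1278.

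Hmox1 (ENSMUSG00000005413, chr8:75093621-75100589, plus strand), the inducible enzyme that frees iron from heme, read 17.3, 13.04 and 13.02 CPM in unwounded total, 9.42, 12.2 and 16.98 in unwounded cortical, 16.1, 11.6 and 8.71 in wounded total, and 7.54, 12.5 and 11.8 in wounded cortical libraries. The groups overlapped in all 4 comparisons. Wounding gave -0.25 (SE 0.27, edgeR adjusted p = 0.6) in the total and -0.27 (SE 0.27, edgeR adjusted p = 0.684) in the cortical fraction. The cortical-to-total differences were -0.18 (SE 0.27, edgeR adjusted p = 0.765) and -0.20 (SE 0.27, edgeR adjusted p = 0.686) in unwounded and wounded cells.

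The change of the cortical-to-total ratio on wounding, for the genes not yet given, was 0.41 (SE 0.20) for Ftl1, 0.75 (SE 1.36) for Ncoa4, 0.10 (SE 0.26) for Aco1, 0.04 (SE 0.22) for Fbxl5, -0.02 (SE 0.38) for Hmox1, -0.10 (SE 0.17) for Fth1 and -0.13 (SE 0.17) for Ireb2. The lowest edgeR adjusted p among these 7 was 0.568, for Ftl1.

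**Figure D4:**
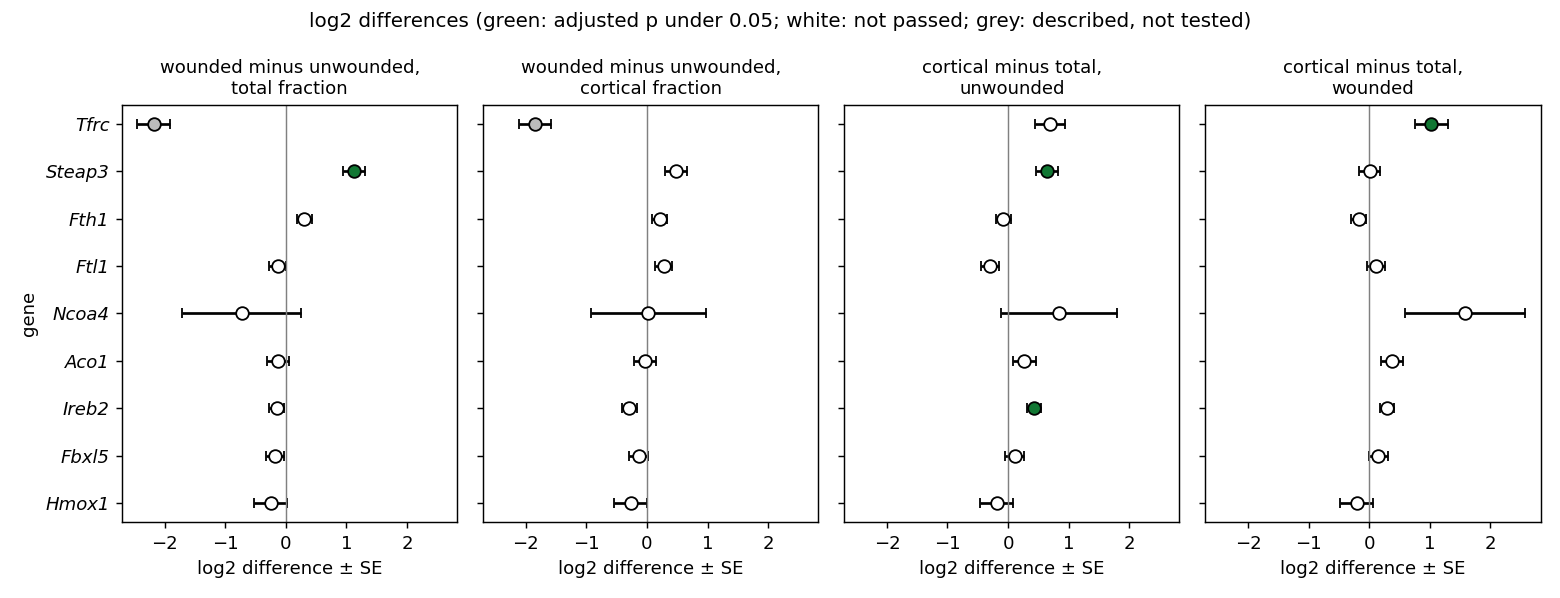
Log2 differences with standard errors (bars) for the 9 genes in 4 comparisons, 3 libraries against 3 in each. Green points passed at edgeR adjusted p under 0.05, white points did not, and the 2 grey points of Tfrc are described without a test; Tfrc lies at -2.18 and -1.85 on wounding and Steap3 at 1.12 in the total fraction.

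A wider list of 83 other iron genes was read in the same fits, and 66 of them passed the count filter. Among those not tested were the exporter Slc40a1, transferrin itself (Trf), the hormone Hamp and the second receptor Tfr2. On wounding of the total fraction 7 rose and 6 fell of the 66, with a median of 0.01; with library-size scaling 3 rose and 7 fell, and with the length trend removed 11 rose and 3 fell. Calls over all tested genes moved the same way. They were 1139 higher and 977 lower with TMM, 708 and 1104 with library-size scaling, and 1909 and 664 with the length trend removed. With TMM 8.39% of all tested genes were called higher and 7.2% lower, so the list was close to that background. The gene that rose most was Urod, an enzyme of heme synthesis, with 33.3 to 37.3 CPM in unwounded and 72.6 to 90.8 CPM in wounded total libraries (log2 difference 1.21, SE 0.12, edgeR adjusted p = 8.52e-06). It was followed by Fdx1, the mitochondrial ferredoxin (0.71, SE 0.18, edgeR adjusted p = 0.0126), and Por, the reductase that feeds electrons to heme oxygenase (0.54, SE 0.13, edgeR adjusted p = 0.00892). Those that fell were led by Slc25a37, which carries iron into mitochondria, with 50.0 to 54.5 CPM in unwounded and 21.9 to 38.2 CPM in wounded libraries (-0.88, SE 0.17, edgeR adjusted p = 0.00245). Next came Pcbp2, an iron chaperone that also binds RNA (-0.82, SE 0.16, edgeR adjusted p = 0.00219), and Bola3, which helps to pass on iron-sulfur clusters (-0.59, SE 0.15, edgeR adjusted p = 0.0126). Urod, Slc25a37 and Pcbp2 passed in all 22 alternatives. Por and Bola3 did not pass without unwounded total replicate 2 (edgeR adjusted p = 0.0566 and 0.0692), nor did Fdx1 and Bola3 without wounded total replicate 3 (0.0724 and 0.0502). With only these groups fitted Fdx1, Por and Bola3 did not pass (edgeR adjusted p = 0.0675, 0.0702 and 0.0772), nor did Por with library-size scaling (0.0756). The count of 13 calls was 24 without wounded total replicate 1, and 8 and 5 without unwounded total replicates 1 and 2. It was 7 without wounded total replicate 3, and 3 with only these 2 groups fitted. Over all tested genes the 2116 calls ranged from 1128 to 3502 with 1 library left out, the highest without wounded total replicate 1. With only these 2 groups fitted 663 of all genes were higher and 512 lower.

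In the cortical fraction 1 of the 66 rose on wounding and 0 fell, close to the 1.6% and 0.884% over all tested genes. This was again Urod, with 45.1 to 58.4 CPM in unwounded and 83.8 to 88.6 CPM in wounded libraries (log2 difference 0.73, SE 0.12, edgeR adjusted p = 0.00326). Without wounded total replicate 1, which shares the estimate of spread, 3 were called, and 5 with only the cortical groups fitted. Over all tested genes the 337 calls became 1276 without that library, and 790 higher and 633 lower with only the cortical groups fitted.

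Between fractions the balance of calls in the wider list depended on the scaling, as did that of all tested genes. In unwounded cells 6 were higher and 14 lower in cortical with TMM, with a median of -0.06, but 9 were higher and 6 lower with library-size scaling, with a median of 0.13. Over all tested genes 6.62% were higher and 7.59% lower with TMM. Those 898 higher and 1030 lower calls became 1582 and 469 with library-size scaling. Lrp1, a receptor that takes up heme bound to hemopexin (0.65, SE 0.15, edgeR adjusted p = 0.00842) and Urod (0.53, SE 0.12, edgeR adjusted p = 0.00651) were among the higher genes. The lower ones included heme oxygenase Hmox2 (-0.81, SE 0.14, edgeR adjusted p = 0.00112) and Bola1 (-0.81, SE 0.24, edgeR adjusted p = 0.0343). In wounded cells 3 were higher and 14 lower, with a median of 0.03, opposite in sign to the balance of calls, and with library-size scaling 5 were higher and 4 lower. Over all tested genes 7.62% were higher and 8.03% lower with TMM. Those 1034 higher and 1090 lower calls became 2203 and 520 with library-size scaling. Slc11a2, which carries ferrous iron out of endosomes, was higher in the cortical fraction with 21.7 to 29.6 CPM against 15.6 to 18.9 CPM in total (0.66, SE 0.17, edgeR adjusted p = 0.0152). Lrp1 (0.51, SE 0.15, edgeR adjusted p = 0.0296) and Mms19, a factor of cytosolic iron-sulfur assembly (0.42, SE 0.12, edgeR adjusted p = 0.0244), completed the higher genes. Bola1 (-1.15, SE 0.24, edgeR adjusted p = 0.00493), Fdx1 (-0.93, SE 0.18, edgeR adjusted p = 0.00269) and Ciapin1 (-0.86, SE 0.14, edgeR adjusted p = 8.02e-04) led the lower. With the length trend removed the calls of Lrp1 and Bola1 in unwounded and of Slc11a2, Lrp1 and Mms19 in wounded cells did not pass (edgeR adjusted p = 0.0602 to 0.769). In unwounded cells Bola1 also did not pass without any 1 of the 6 libraries (edgeR adjusted p = 0.055 to 0.165), Lrp1 without cortical replicate 3 (0.0533) and Urod without cortical replicate 1 (0.0517). In wounded cells Lrp1 did not pass without total replicate 2 or 3 or cortical replicate 1 or 2 (0.0775 to 0.15), Mms19 without total replicate 2 or 3 or cortical replicate 2 or 3 (0.0565 to 0.134), and Slc11a2 without total replicate 3 or cortical replicate 2 or 3 (0.0542 to 0.0694). With other tools unwounded Bola1 did not pass in DESeq2 (adjusted p = 0.0767) or limma (0.108 and 0.11 with FPKM plus 1 and plus 0.1), unwounded Lrp1 in limma with FPKM plus 1 (0.0518), and wounded Lrp1 (0.116 and 0.126) and Mms19 (0.074 and 0.0701) in both limma fits. With only the wounded groups fitted Slc11a2, Lrp1 and Mms19 did not pass in edgeR (adjusted p = 0.0528, 0.0924 and 0.0773). Hmox2 in unwounded and Bola1, Fdx1 and Ciapin1 in wounded cells passed in all 22 alternatives. The counts of 20 and 17 calls in the list were both 9 with the length trend removed. All tested genes then had 732 calls higher and 711 lower in unwounded, and 365 and 1094 in wounded cells. The list counts ranged over all alternatives from 9 to 28 in unwounded and from 5 to 28 in wounded cells. The latter was 28 without wounded total replicate 1, where the calls over all tested genes went from 2124 to 3475. The change of the ratio on wounding passed for 0 of the 66 in edgeR (6 unadjusted), 0 in DESeq2 and 0 in limma, and for 3 without wounded total replicate 1. Over all tested genes the 17 calls of that change became 413 without that library.

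By role, beside 8.39% of all tested genes higher and 7.2% lower, the mitochondrial and iron-sulfur genes had 2 of 20 called higher and 3 lower on wounding of the total fraction, and the heme genes 2 of 12 higher and 0 lower. The uptake genes other than Tfrc and Steap3 had 1 of 8 higher and 0 lower, the export and chaperone genes 1 of 9 in each direction, and the partners of the sensors 1 of 12 higher and 2 lower. Of the 5 other mRNAs with a reported iron responsive element 0 were called in any of these comparisons.

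**Figure D5:**
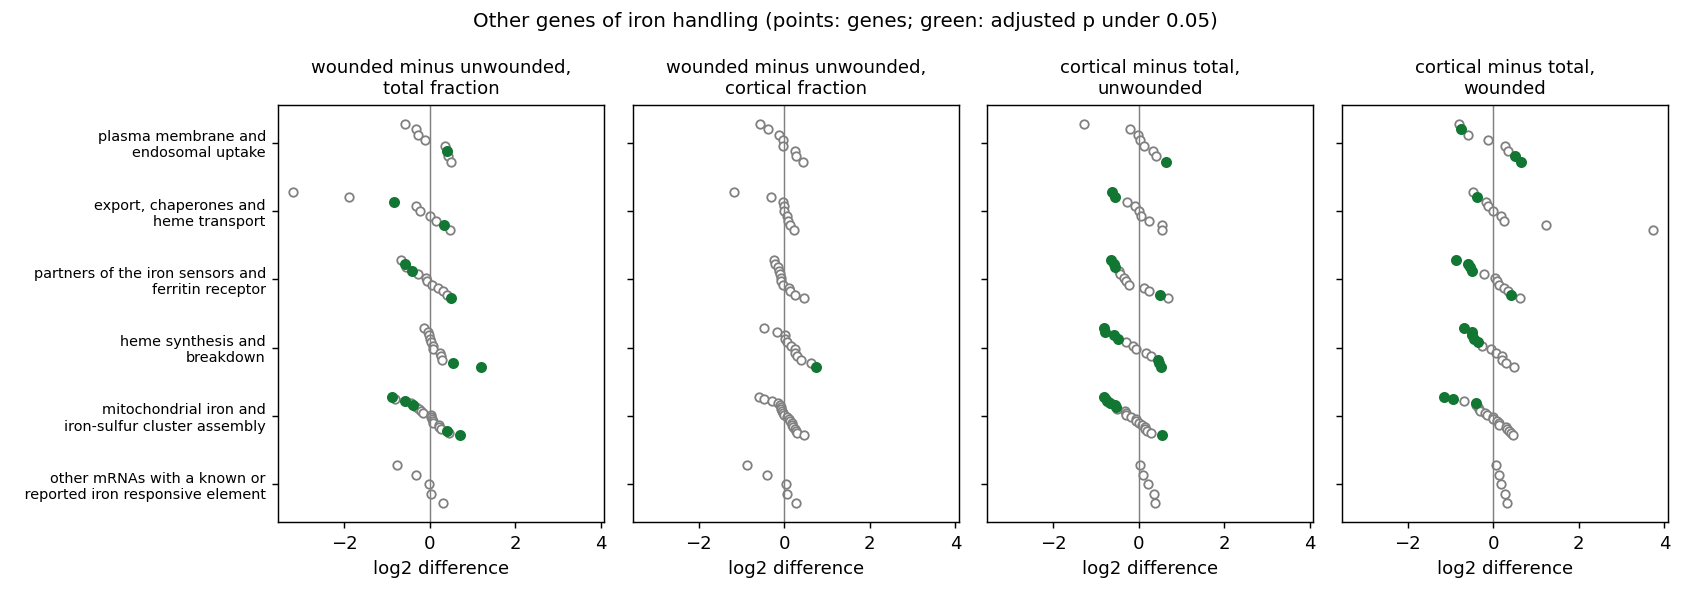
Log2 differences of the 66 tested genes of the wider list in 4 comparisons, grouped by role and sorted within a role, with green points for edgeR adjusted p under 0.05. In the comparisons of fractions 14 green points lie left of 0 in each and 6 and 3 right of it with TMM scaling, against 6 and 4 left and 9 and 5 right with library-size scaling, which is not drawn. Over all tested genes 46.6% and 48.7% of calls were higher with TMM, and 77.1% and 80.9% with library-size scaling.

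The genes whose levels over the 12 libraries were most like those of Tfrc, among the 9310 that averaged 100 counts or more once the iron genes of the group were left out, were Gli1 (Pearson r of log2 CPM 0.965), Cnot6 (0.953), Slc35b4 (0.952), Ppip5k2 (0.952) and Clptm1l (0.952). Gli1, a transcription factor of Hedgehog signalling, had log2 differences on wounding of -1.44 in the total and -0.97 in the cortical fraction, and the other 4 ranged from -0.80 to -0.43 and from -0.41 to -0.35. Within the iron genes the correlation with Tfrc was 0.72 for Ireb2, 0.53 for Aco1, 0.40 for Ncoa4, 0.38 for Fbxl5, 0.18 for Hmox1, -0.26 for Ftl1, -0.66 for Steap3 and -0.78 for Fth1. The libraries share 4 group means and their depth, so these are descriptions of likeness only.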

How the data were processed

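Per the labels' protocols, polyadenylated RNA was captured on oligo-T beads and sequenced as libraries that do not keep the strand. CASAVA, HISAT2 and build mm10 are named in the submitters' processing notes without versions; the counting tool and annotation are not given in the sources used here. The authors deposited raw fragment counts and FPKM values for the 12 libraries, with gene lengths in the file headers. Deposited FPKM were proportional to counts divided by length and by 1 effective size per library (0.825 to 1.10 times its total).

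Groups and replicate numbers came from sample titles, which say biological replicate without naming separate cultures or animals, so p-values measure only the spread between these libraries. In R 4.3.3, genes were filtered with filterByExpr, scaled with TMM and fitted in 1 quasi-likelihood model over all 12 libraries (edgeR 4.0.16), two-sided, with Benjamini-Hochberg adjustment over 13571 genes and a threshold of 0.05. Alternatives used DESeq2 1.42.0 and limma 3.58.1 (limma-trend on log2 of FPKM plus 1 or 0.1), RLE or library-size scaling, no filter, only the groups compared, the replicate number as a block, a loess trend on length removed per library (span 0.5), and each library left out. Applying them to the wider list, and adding Ftl1-ps1 to Ftl1, were decided after seeing the data. The fits were run on simulated counts with known changes. Those counts did not model an outlying library such as wounded total replicate 1, so that check does not cover its effect. The hairpin search was checked only on a constructed sequence with the hairpin and another without it. The 9 genes and the lists were chosen with earlier results of these data known. From the wider list up to 3 genes per direction were named, by largest change among those called with a mean of at least 100 counts, and some of them are not reported here; the 5 genes most like Tfrc were those with the highest r. Figures used matplotlib.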

Additional observations from a re-analysis of the deposited data

How the results depend on the processing

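Of the 5 counts of called genes among the 9, that for the change of the ratio stayed at 0 in every alternative. The wound count of the total fraction was 1 and became 2 with DESeq2, and 1 to 2 with each library left out. The wound count of the cortical fraction was 0 and became 2 with only the groups compared. The count between unwounded fractions was 2 and became 0 with the length trend removed, with or without the replicate block, 3 with library-size scaling, DESeq2, limma on FPKM plus 1 or only the groups compared, and 0 to 3 with each library left out. Between wounded fractions it was 1 and became 3 with library-size scaling, and 0 with limma on FPKM plus 1, limma on FPKM plus 0.1, the length trend removed or only the groups compared, and 0 to 2 with each library left out. The cause of these changes was not tested. Fits of only the groups compared hold fewer libraries and do not share the estimate of spread with the other groups.

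The sign turned for differences that had not passed or, for the change of the ratio of Tfrc, were not tested. The wound response of Ncoa4 in the cortical fraction became -0.0293 with library-size scaling, -0.00556 with no filter, -0.123 with the replicate block, -0.0966 with block and length trend removed and -0.0205 with only those groups. Between unwounded fractions library-size scaling gave 0.114 for Fth1 and 0.0017 for Hmox1; removing the length trend gave 0.234 for Fth1, -0.0627 for Fbxl5 and 0.0465 for Hmox1, and with the replicate block 0.242, -0.0552 and 0.0583. Between wounded fractions Steap3 became -0.0171 with RLE, -0.0171 with DESeq2, -0.00822 and -0.00925 with limma on FPKM plus 1 and plus 0.1, -0.157 with the length trend removed and -0.152 with the block as well. There Fth1 became 0.0276 with library-size scaling, and 0.015 and 0.0535 with the length trend removed without and with the block, where Fbxl5 became -0.127 and -0.114. The change of the ratio became -0.00379 (RLE), -0.00403 (DESeq2), -0.064 (length trend removed) and -0.0586 (and replicate block) for Fbxl5, -0.0143 and -0.0177 with the length trend removed without and with the block for Aco1, and -0.0947 with limma on FPKM plus 1 for Tfrc.

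With each library left out, wound responses ranged from -0.258 to 0.0572 for Ftl1 in the total fraction, and in the cortical fraction from -0.37 to 1.03 for Ncoa4 and -0.129 to 0.0884 for Aco1. Between unwounded fractions the ranges were -0.176 to 0.0166 for Fth1, -0.171 to 1.22 for Ncoa4 and -0.431 to 0.00471 for Hmox1. Between wounded fractions they were -0.04996 to 0.124 for Steap3, -0.0133 to 0.186 for Ftl1, -0.00696 to 0.398 for Fbxl5 and -0.396 to 0.0509 for Hmox1. For the change of the ratio they were -0.228 to 0.00203 for Fth1, -0.135 to 0.293 for Fbxl5 and -0.228 to 0.244 for Hmox1.

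Same-numbered libraries did not deviate together (correlations across genes -0.0331 to 0.0913, and 4, 3, 0 and 1 of 6 libraries correlated best with their own number in the 4 comparisons of groups). By the protocol each cortical capture left behind a total fraction, but the labels do not say whether such partners share a number. With 3 libraries per group these correlations cannot exclude pairing. The main fit did not take the numbers as pairs, and the replicate block alone changed no call among the 9 genes. The change of the ratio needs all 4 groups, so it was not run with only the groups compared. Over all genes, leaving out 1 library moved the number of calls from 2116 to between 1128 and 3502 and from 337 to between 108 and 1276 on wounding (total, cortical), from 1928 to between 949 and 3151 and from 2124 to between 1084 and 3475 between fractions (unwounded, wounded), and from 17 to between 4 and 413 for the change of the ratio; the highest of each was without wounded total replicate 1. Over the other alternatives these counts ranged from 1175 to 2601, 199 to 1423, 1351 to 3014, 970 to 2723 and 10 to 138.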
